A study of Mus musculus with 16 samples.

Results

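Siglecs are receptors of immune cells that bind sialic acid, the negatively charged sugar that caps many glycans on cell surfaces and on lipoproteins. Rows of the count table whose symbol was Siglecf, Siglec1, Siglece or Cd33 were taken, which gave 4 genes of 15871 entries in the table. The genes were chosen by family with earlier results of these libraries known, selected on values that include the lower Siglecf counts with oxidised low-density lipoprotein (ox-LDL). Which values led to the other members is not recorded. Fold changes of the 4 genes are therefore given as a description, without a p-value. All 4 genes passed the filter on low counts, which left 13527 entries for testing.

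RNA was sequenced from peritoneal macrophages of C57BL/6 mice labelled WT and aged 8 weeks, elicited with 6% starch and kept for 48 h in DMEM with serum. H_O cells received glucose at 33 mmol/L together with ox-LDL. H_C cells received glucose at 33 mmol/L alone. L_O cells received ox-LDL in low glucose, and the label of this group names no mannitol. L_C cells were the osmotic control, in low glucose with 27.5 mM mannitol. Only the L_C label names mannitol, so in comparisons that use L_C its part cannot be told apart from that of ox-LDL or glucose. The ox-LDL dose is labelled as 50 mg/ml, a unit that could not be checked. Each group had 4 libraries, and nothing in the labels says that they came from separate animals or cultures, or whether animals were pooled, so the p-values cover the spread among the libraries, which may be technical.

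In the mouse, most Siglecs that carry an inhibitory tyrosine motif (ITIM) in the cytoplasmic tail recruit the phosphatases Ptpn6 and Ptpn11 and dampen signals from activating receptors. Siglecf and Siglece are of this kind. Mouse Cd33 lacks the usual ITIM of its human counterpart and can pair with the activating adaptor Tyrobp, while Siglec1 (sialoadhesin) is a long adhesion receptor of macrophages with no signalling motif of its own. Macrophages load lipid when they take up ox-LDL, a modified lipoprotein cleared by scavenger receptors.

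Library totals lay between 32596640 and 41712885 counts. Replicate 4 of L_C stood apart from the other libraries. Mitochondrial genes took 3.71% of its counts, against 1.48% to 2.30% in the other 15 libraries. A chi-square statistic per degree of freedom between it and the other L_C libraries was 86.2 to 89.5, the highest of the replicate pairs, whose range over the 24 pairs was 6.20 to 89.5. Fold changes of the 4 genes and of Cd22 and Mag against L_C are given with and without this library, and those of the other listed genes named here also without it where that ended the call. All 9 macrophage markers were detected, with a summed level of 17470 to 20950 CPM over the 16 libraries. Most of this sum was Lyz2, at 13260 to 16810 CPM. At an adjusted p under 0.05 by edgeR, 1 of the 9 was higher and 4 were lower for L_O against L_C. For H_O against H_C, 4 were higher and 2 lower. Of all entries, 12.0% were higher and 13.8% lower in the first comparison, and 10.4% and 11.5% in the second. Without replicate 4 of L_C the marker counts were 1 and 5, and 4 and 4. CPM is the count of a gene scaled to a fixed library size, adjusted by a TMM factor.

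Siglecf was lower with ox-LDL at both glucose levels. This receptor marks eosinophils and alveolar macrophages in the mouse. Its level was 3.69, 4.40, 4.98 and 3.73 CPM in the 4 L_O libraries, against 20.6, 16.9, 18.8 and 14.2 CPM in the L_C libraries. In high glucose it was 5.72, 4.70, 4.83 and 5.71 CPM in H_O, against 23.6, 19.5, 23.0 and 21.9 CPM in H_C. Every library with ox-LDL was below every library without it, and the ranges of H_O and L_O overlapped, as did those of H_C and L_C. The log2 fold change was -2.07 ± 0.13 (SE) for L_O against L_C, a level 4.19-fold lower, and -2.16 ± 0.12 without replicate 4 of L_C. For H_O against H_C it was -2.07 ± 0.13. Raw counts of Siglecf lay between 122 and 898 in the 16 libraries.

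Cd33 was higher with ox-LDL at both glucose levels. It stood at 275, 281, 278 and 288 CPM in L_O, against 123, 131, 131 and 186 CPM in L_C. In high glucose it stood at 289, 328, 305 and 313 CPM in H_O, against 144, 136.5, 149 and 149 CPM in H_C. The groups with and without ox-LDL did not overlap, and the L_C library nearest to the L_O range was replicate 4. The log2 fold change was 0.97 ± 0.09 (SE) for L_O against L_C, or 1.96-fold, and 1.12 ± 0.04 without replicate 4 of L_C. For H_O against H_C it was 1.10 ± 0.09, or 2.14-fold.

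**Figure D1:**
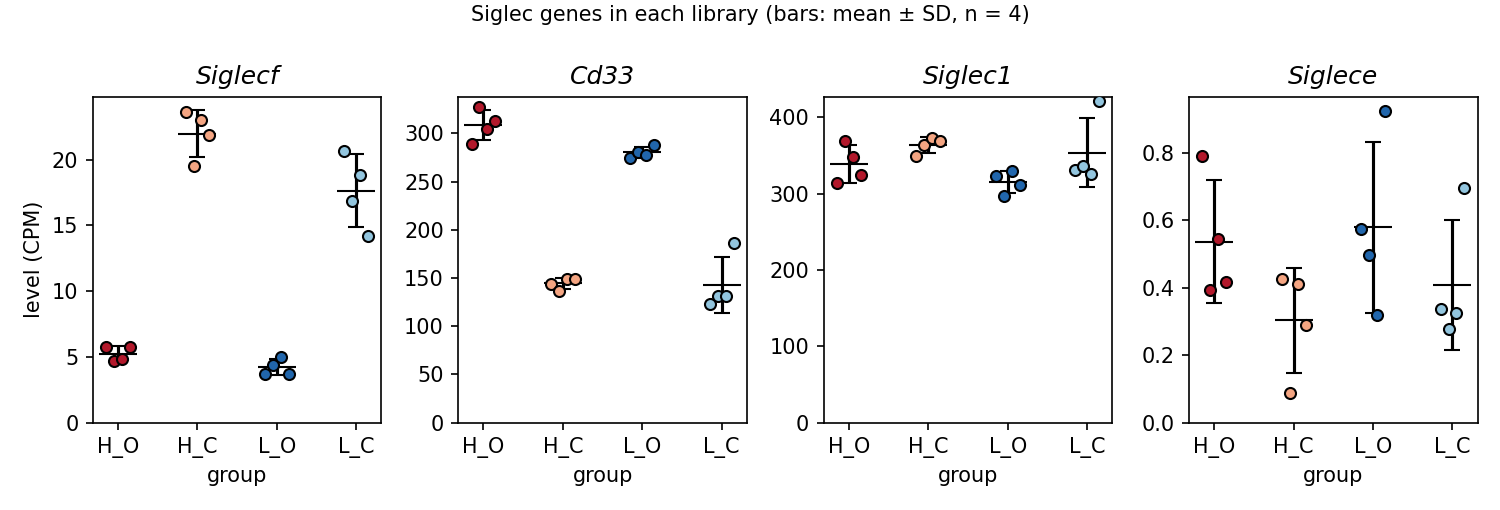
Level of Siglecf, Cd33, Siglec1 and Siglece in CPM (y axes, starting at 0) in the 16 libraries of H_O, H_C, L_O and L_C (x axis). Points are libraries, horizontal bars with whiskers are the group mean ± SD (n = 4). The ox-LDL groups lie below the other groups for Siglecf, at 3.69 to 5.72 CPM, and above them for Cd33, at 275 to 328 CPM, while the groups overlap for Siglec1 and Siglece.

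The count ratio of Cd33 to Siglecf combines these opposite differences. Cd33 had 59.6 ± 8.49 counts for each Siglecf count in H_O and 6.60 ± 0.40 in H_C (SD, n = 4 each). The ratio was 67.8 ± 9.90 in L_O and 8.47 ± 3.21 in L_C. Within L_C, replicate 4 had the highest ratio, 13.2, and the other 3 libraries had 5.97, 7.79 and 6.98.

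**Figure D2:**
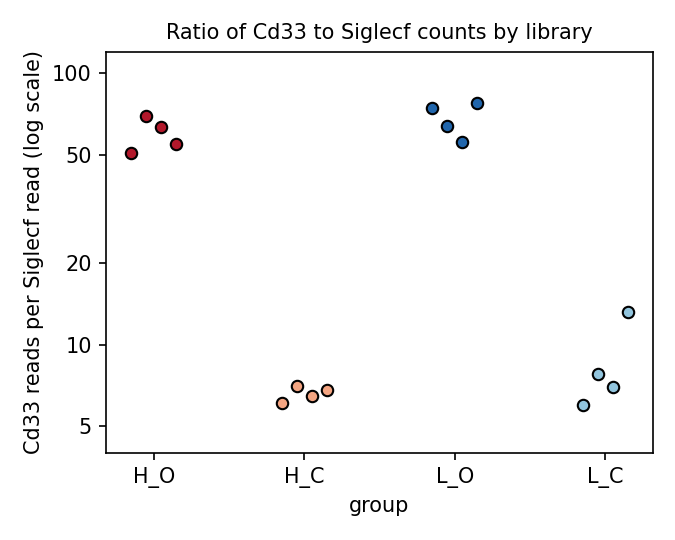
Counts of Cd33 per count of Siglecf in each library (y axis, log scale) by group (x axis, H_O, H_C, L_O, L_C). With ox-LDL the 8 libraries span 50.6 to 77.2, and without ox-LDL the 8 libraries span 5.97 to 13.2.

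Both genes lie on mouse chromosome 7 in a cluster of Siglec genes. Siglecf (ENSMUSG00000039013.16) occupies chr7:43351341-43359531 on the plus strand and Cd33 (ENSMUSG00000004609.11) occupies chr7:43524216-43544428 on the minus strand (mm10, GENCODE M21), with 164.7 kb between them. Siglece (ENSMUSG00000030474.9) lies at chr7:43651070-43660161 on the minus strand, 106.6 kb beyond Cd33, and Siglec1 (ENSMUSG00000027322.11) at chr2:131069220-131086765 on the minus strand. The 250 bases before the RefSeq start (GRCm38.p6) are shown for Siglecf and Cd33 because their levels differ in opposite directions. Siglecf is shown at chr7:43351091-43351340 on the plus strand and Cd33 at chr7:43533172-43533421 on the minus strand, inside the longer Cd33 gene of GENCODE. Each is written 5′ to 3′ in lower case, with capitals for runs of at least 10 bases that both share.
Siglecf: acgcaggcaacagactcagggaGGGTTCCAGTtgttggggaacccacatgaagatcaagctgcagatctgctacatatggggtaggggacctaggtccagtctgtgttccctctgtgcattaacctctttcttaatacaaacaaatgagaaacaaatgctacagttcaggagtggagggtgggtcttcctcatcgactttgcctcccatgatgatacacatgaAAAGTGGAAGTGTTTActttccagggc
Cd33: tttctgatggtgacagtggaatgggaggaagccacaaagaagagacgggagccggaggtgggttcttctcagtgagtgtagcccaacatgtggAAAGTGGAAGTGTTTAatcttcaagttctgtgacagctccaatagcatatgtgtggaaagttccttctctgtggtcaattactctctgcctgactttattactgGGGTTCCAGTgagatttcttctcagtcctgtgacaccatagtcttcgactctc
The shared run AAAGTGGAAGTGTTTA starts at position -27 in Siglecf and -157 in Cd33, counted from the start site, and occurs in 2 of 32851 RefSeq promoters of this length, which are these. The shorter run GGGTTCCAGT starts at -228 and -53 and occurs in 23 of the 32851.

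RefSeq gave a promoter for 3 of the 4 genes (Siglecf, Cd33 and Siglece, but Siglec1 is named only). The 3 were searched on both strands for 4 motifs. The PU.1 consensus GAGGAAGT (in 2.44% of the 32851 promoters) and the AP-1 site TGANTCA (6.75%) had no match in these windows. The antioxidant response element TGACNNNGC, found in 10.2% of promoters, matched once, at -111 in Siglece. The RUNX core TGTGGT, found in 14.0%, matched once, at -88 in Cd33. A match is a description of letters, and these matches did not overlap another motif of the search.

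Siglec1 had the highest level of the 4 per kilobase of merged annotated exon in every group. Its level was 314, 369, 348 and 325 CPM in H_O, against 349, 364, 373 and 369 CPM in H_C. It was 323, 297, 330 and 311 CPM in L_O, against 332, 337, 326 and 421 CPM in L_C. All 4 groups overlapped with their neighbours in the order of the means, and the highest value belonged to replicate 4 of L_C. The log2 fold change was -0.17 ± 0.07 (SE) for L_O against L_C, -0.07 ± 0.05 without that library, and -0.10 ± 0.07 for H_O against H_C.

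Siglece, an ITIM receptor of mouse neutrophils and macrophages, was near the lower end of the tested range. Counts were 30, 15, 20 and 17 in H_O, against 14, 3, 16 and 10 in H_C. Counts were 19, 19, 11 and 34 in L_O, against 11, 10, 11 and 27 in L_C. Groups with and without ox-LDL overlapped at both glucose levels. Its log2 fold change was 0.50 ± 0.52 (SE) for L_O against L_C and 0.81 ± 0.53 for H_O against H_C, so differences of this size were not resolved at these counts. Without replicate 4 of L_C, the highest L_C library, it was 0.88 ± 0.60 for L_O against L_C.

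The fit across all entries called 2 of the 4 genes in both ox-LDL comparisons at an adjusted p under 0.05, Cd33 as higher and Siglecf as lower. Of all 13527 tested entries, 25.8% were called for L_O against L_C and 21.9% for H_O against H_C. By direction, 12.0% were called higher and 13.8% lower for L_O against L_C, and 10.4% higher and 11.5% lower for H_O against H_C. The libraries of Siglecf and Cd33 did not overlap between groups, and of all entries 12.2% lay wholly higher and 13.9% wholly lower for L_O against L_C, and 14.8% each way for H_O against H_C. As the choice of members used these results, nothing is read from the counts. Scaling to library totals alone shifted the split of all calls, to 2857 higher and 1392 lower for L_O against L_C in place of 1623 and 1867, and to 2176 and 1166 for H_O against H_C in place of 1406 and 1556. It left the direction and call of these 4 genes in both comparisons as they were.

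Levels between genes were compared as CPM per kilobase of annotated exon (sum of merged exons), in the ox-LDL groups and their controls. Siglec1 had 47.4 ± 3.45 in H_O and 50.9 ± 1.45 in H_C (SD, n = 4 each), and Cd33 had 39.7 ± 2.05 in H_O and 18.6 ± 0.75 in H_C. Siglecf had 1.88 ± 0.20 in H_O and 7.88 ± 0.65 in H_C, and Siglece 0.290 ± 0.0981 in H_O and 0.164 ± 0.0845 in H_C. In low glucose Siglec1 had 44.1 ± 2.01 in L_O and 49.5 ± 6.31 in L_C, Cd33 36.1 ± 0.73 and 18.4 ± 3.74, Siglecf 1.51 ± 0.22 and 6.31 ± 0.99, and Siglece 0.313 ± 0.138 and 0.221 ± 0.104, L_O before L_C in each. By this measure the order of the 4 genes was the same in all groups, with Siglec1 first, then Cd33, Siglecf and Siglece. The gap between Siglec1 and Cd33 was smaller with ox-LDL. Merged exons add up to 7143 bases for Siglec1 and 7771 bases for Cd33. Lengths of single transcripts were not used, and they could change the order of Siglec1 and Cd33.

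The share of all counts of the 8 Siglec genes in the table was also compared. Cd33 took 40.7% ± 1.12 of them in L_O and 21.8% ± 1.43 in L_C (SD, n = 4 each), and Siglec1 45.7% ± 1.46 in L_O and 54.3% ± 0.75 in L_C. In high glucose Cd33 took 41.4% ± 0.92 in H_O and 22.0% ± 0.53 in H_C, and Siglec1 45.4% ± 1.06 in H_O and 55.3% ± 0.93 in H_C. The share of a gene also falls where another gene of the sum rises, and these counts are not scaled to gene length. The level of Siglec1 itself had log2 fold changes of -0.17 ± 0.07 (SE) for L_O against L_C and -0.10 ± 0.07 for H_O against H_C. The summed level of the 8 genes was 746 ± 40.6 CPM in H_O and 657.5 ± 15.4 CPM in H_C, and 689 ± 10.1 CPM in L_O and 652.5 ± 91.1 CPM in L_C.

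Between high and low glucose, none of the 4 genes passed the threshold with all libraries fitted. Siglecf averaged 22.0 ± 1.81 CPM in H_C and 17.6 ± 2.77 CPM in L_C (SD, n = 4 each), with overlapping libraries and a log2 difference of 0.32 ± 0.12 (SE), or 0.23 ± 0.11 without replicate 4 of L_C. With ox-LDL it averaged 5.24 ± 0.55 CPM in H_O and 4.20 ± 0.62 CPM in L_O, a log2 difference of 0.32 ± 0.13, again with overlap. Cd33 averaged 144.5 ± 5.83 CPM in H_C and 143 ± 29.0 CPM in L_C, a log2 difference of 0.01 ± 0.09 that became 0.17 ± 0.04, past the threshold, without replicate 4 of L_C. With ox-LDL it averaged 309 ± 15.9 CPM in H_O and 280 ± 5.66 CPM in L_O, a log2 difference of 0.14 ± 0.09. These H_O libraries, from 289 CPM upwards, lay above all L_O libraries, up to 288 CPM, as did 8.18% of all entries. By edgeR 0 of the 4 genes were called for H_C against L_C or H_O against L_O, where 12.8% and 6.11% of all entries did. At an unadjusted p under 0.05, 1 gene did so in each comparison. DESeq2 called none of the 4 in either, and limma-voom called 1 for H_C against L_C and none for H_O against L_O. Siglec1 differed by 0.04 ± 0.07 between H_C and L_C and by 0.11 ± 0.07 between H_O and L_O on the log2 scale. Siglece differed by -0.43 ± 0.54 and -0.11 ± 0.51 in the same comparisons. Without replicate 4 of L_C, the differences between H_C and L_C were 0.13 ± 0.05 for Siglec1 and -0.04 ± 0.60 for Siglece.

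In H_O against L_C, glucose, ox-LDL and the labelled mannitol all differ. The log2 fold changes were -1.75 ± 0.13 (SE) for Siglecf, 1.11 ± 0.09 for Cd33, -0.06 ± 0.07 for Siglec1 and 0.39 ± 0.52 for Siglece. Without replicate 4 of L_C they were -1.84 ± 0.12 for Siglecf, 1.26 ± 0.04 for Cd33, 0.03 ± 0.05 for Siglec1 and 0.77 ± 0.60 for Siglece. This comparison shares the H_O and L_C libraries with those above. Siglecf was called lower and Cd33 higher, where 14.5% of all entries were called higher and 16.1% lower. As the members were chosen with earlier results of these data known, nothing is read from these calls. The difference between the ox-LDL effect in high and in low glucose was -0.0016 ± 0.20 for Siglecf, 0.12 ± 0.13 for Cd33, 0.07 ± 0.10 for Siglec1 and 0.32 ± 0.74 for Siglece. Without replicate 4 of L_C it was 0.09 ± 0.16 for Siglecf, -0.03 ± 0.06 for Cd33, -0.03 ± 0.06 for Siglec1 and -0.07 ± 0.81 for Siglece. None of the 4 passed the threshold of edgeR, at an unadjusted p under 0.05 none did, and DESeq2 and limma-voom called none. Of all entries, 0.0148% were called.

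The other Siglec genes in the table were Cd22, Mag, Siglecg and Siglec15. Siglech and Siglecl2 were not analysed here. Cd22, an inhibitory receptor best known from B cells, fell with ox-LDL, and Mag, the myelin-associated glycoprotein, fell as well. Cd22 averaged 82.0 ± 2.69 CPM in L_O and 127 ± 21.7 CPM in L_C (SD, n = 4 each), a log2 fold change of -0.63 ± 0.08 (SE, adjusted p = 1.11e-05 by edgeR), or -0.51 without replicate 4 of L_C. It averaged 86.0 ± 4.21 CPM in H_O and 118 ± 2.45 CPM in H_C, a log2 fold change of -0.46 ± 0.08 (adjusted p = 0.000417 by edgeR). Cd22 overlaps the antisense gene Gm29439 on the other strand. The strand setting of the counting is not given in the sources used here, so reads from the overlapping part cannot be told apart. Of 5495 stretches of 50 bases in Cd22 transcripts, 385 also occur in Gm29439 on either strand. Mag averaged 6.75 ± 0.94 CPM in L_O and 10.0 ± 1.48 CPM in L_C, with a log2 fold change of -0.57 ± 0.13 (adjusted p = 0.00316 by edgeR), or -0.66 ± 0.13 without replicate 4 of L_C. In high glucose Mag averaged 6.08 ± 0.43 CPM in H_O and 8.58 ± 1.05 CPM in H_C, a log2 fold change of -0.50 ± 0.13 (adjusted p = 0.0101 by edgeR). Siglecg had 0 to 16 counts per library and Siglec15 0 to 22, too few for a fold change.

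**Figure D3:**
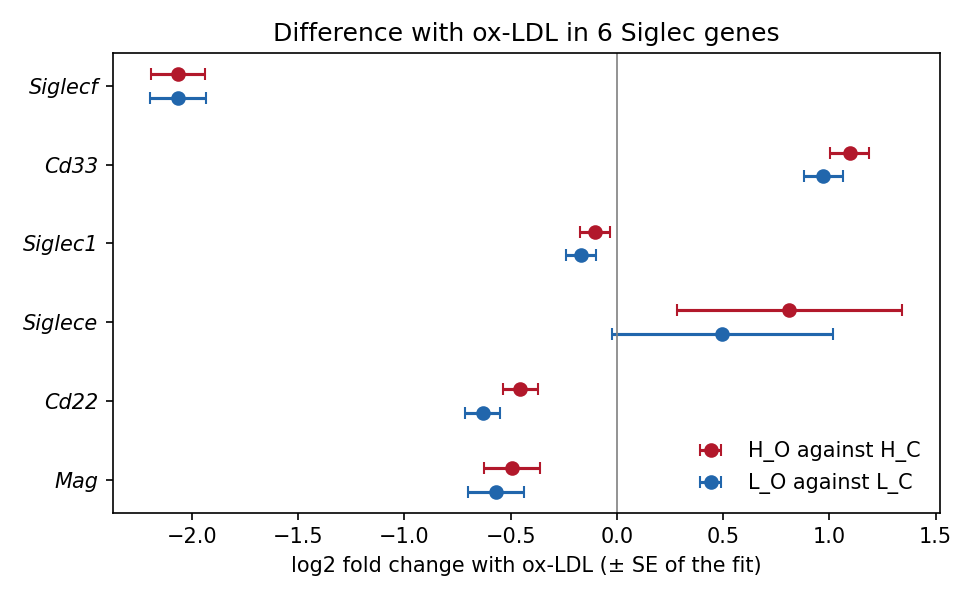
Log2 fold change with ox-LDL (x axis, ± SE of the fit) for 6 Siglec genes, in high glucose (H_O against H_C, red) and in low glucose (L_O against L_C, blue). Siglecf lies near -2.07 and Cd33 near 1 in both, Siglec1 close to 0, Siglece has an SE of about 0.5, and Cd22 and Mag lie below 0.

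B-cell markers stood at most at 2.36 CPM in sum (5 of 8 detected, all libraries), below Cd22 alone. As to the other cell types that carry these receptors, eosinophil markers were close to 0. Of 8 such markers, 3 were detected (Ccr3, Il5ra and Rnase2b, with the others not analysed here), each at 0 counts in 10 or 11 of the 16 libraries. Their summed level was 0 to 0.300 CPM in H_O, 0.0512 to 0.175 CPM in H_C, 0 to 0.212 CPM in L_O and 0 to 0.337 CPM in L_C, against 3.69 to 23.6 CPM of Siglecf. Markers of mast cells and basophils (2 of 8 detected) reached at most 0.493 CPM in sum. Neutrophil markers (6 of 10 detected, with Ly6g, Mpo, Elane and Camp not analysed here) summed to 66.5 to 75.8 CPM in H_O, 109.5 to 116 CPM in H_C, 72.9 to 84.8 CPM in L_O and 128 to 186 CPM in L_C. Most of this sum was Csf3r, a cytokine receptor also made by macrophages, with 74.4 ± 4.61 CPM in L_O and 141 ± 26.8 CPM in L_C (SD, n = 4 each). Of 4 tested neutrophil markers, Csf3r and Cxcr2 were called lower in both ox-LDL comparisons, where 13.8% and 11.5% of all entries were called lower. For Cxcr2 the log2 fold change was -2.37 for L_O against L_C and -4.37 for H_O against H_C (adjusted p = 0.00446 and 0.000241 by edgeR). Its counts were low, at most 99 per library and 0 in 3 libraries. S100a8, a calcium-binding protein, averaged 4.12 ± 0.87 CPM in L_O and 3.67 ± 0.27 CPM in L_C. In high glucose S100a8 averaged 4.33 ± 0.41 CPM in H_O and 3.28 ± 0.57 CPM in H_C. It passed the threshold in neither comparison (adjusted p = 0.523 and 0.105 by edgeR). Plasmacytoid dendritic cell markers (3 of 6 detected) summed to 6.25 to 17.6 CPM over the libraries and T and NK cell markers (6 of 8) to 2.23 to 6.88 CPM.

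Some markers of peritoneal macrophage subsets fell with ox-LDL. Markers of large peritoneal macrophages (10 of 11 detected) summed to 104.5 to 115 CPM in H_O, 199 to 221 CPM in H_C, 109 to 118 CPM in L_O and 208.5 to 268 CPM in L_C. Markers of small peritoneal macrophages and monocytes (8 of 8) summed to 508 to 618 CPM in H_O, 889 to 1049 CPM in H_C, 589.5 to 629 CPM in L_O and 1153 to 1424 CPM in L_C. Of the large type, 5 of 10 tested markers were called lower in each ox-LDL comparison. Of the small type, 5 of 8 were called lower for L_O against L_C and 2 of 8 for H_O against H_C. Of all entries, 13.8% were called lower for L_O against L_C and 11.5% for H_O against H_C. The count of 5 for H_O against H_C was 3 without replicate 4 of H_C or replicate 4 of H_O. A few genes carried the sums. F10 averaged 75.7 ± 2.45 CPM in L_O and 169 ± 11.5 CPM in L_C, Itgax 380 ± 13.7 CPM in L_O and 767 ± 37.1 CPM in L_C, and Fn1 223.5 ± 14.6 CPM in L_O and 475 ± 97.0 CPM in L_C. For H_O against H_C the log2 fold change was -1.14 for F10 and -1.03 for Itgax. That of Fn1 was -0.36 and did not pass the threshold (adjusted p = 0.0872 by edgeR). The part of these shifts in the levels of the Siglec genes was not tested, and in bulk RNA fewer cells of a type and less RNA per cell cannot be told apart.

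Signalling partners of Siglec tails changed in both directions. Of 8 partners, all tested, 1 rose and 4 fell for L_O against L_C, and 1 rose and 3 fell for H_O against H_C, and the median log2 fold changes were -0.29 and -0.19, where all entries had 0.00 and 0.01. Of all entries, 12.0% were called higher and 13.8% lower in the first comparison, and 10.4% and 11.5% in the second. Without replicate 4 of L_C the counts were 1 and 5, and 2 and 3. Ptpn6 (SHP-1), a phosphatase recruited by ITIMs, averaged 307 ± 21.1 CPM in L_O and 548 ± 30.1 CPM in L_C (SD, n = 4 each). The ranges were 283 to 333 and 520 to 578 CPM, with no overlap, and the log2 fold change was -0.84 ± 0.07 (SE, adjusted p = 3.25e-08 by edgeR). In high glucose it averaged 270 ± 28.4 CPM in H_O and 365 ± 13.8 CPM in H_C, a log2 fold change of -0.44 ± 0.07 (adjusted p = 8.26e-05 by edgeR). Without ox-LDL, Ptpn6 was also lower in high glucose, by 0.59 on the log2 scale for H_C against L_C (adjusted p = 2e-05 by edgeR). Ptpn11 had log2 fold changes of 0.13 for L_O against L_C and 0.12 for H_O against H_C (adjusted p = 0.0937 and 0.139 by edgeR). Without replicate 4 of L_C, Ptpn11 passed the threshold for H_O against H_C (adjusted p = 0.00939 by edgeR). Tyrobp, the adaptor that Cd33 can pair with, had -0.21 and -0.23 with all libraries (adjusted p = 0.0133 and 0.0106 by edgeR). Inpp5d (SHIP1), a lipid phosphatase that inhibitory receptors recruit to dampen activating signals, rose by 0.35 ± 0.05 for L_O against L_C and 0.46 ± 0.05 for H_O against H_C (adjusted p = 3.27e-05 and 1.44e-06 by edgeR). Cbl, a ubiquitin ligase, fell by 0.39 ± 0.04 and 0.50 ± 0.04 (adjusted p = 6.38e-07 and 2.77e-08 by edgeR). Socs3, which binds phosphorylated tails of human Siglecs, averaged 17.2 ± 3.47 CPM in L_O and 31.8 ± 0.89 CPM in L_C and fell by 0.89 ± 0.14 on the log2 scale (adjusted p = 7.51e-05 by edgeR), while in high glucose its log2 fold change was -0.29 ± 0.14 (adjusted p = 0.145 by edgeR).

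Most tested sialyltransferase genes fell with ox-LDL. Sialyltransferases attach sialic acid to glycans. Of 20 listed, 15 had an entry and 12 were tested, and 8 fell in both ox-LDL comparisons by edgeR, and the median log2 fold changes were -0.46 for L_O against L_C and -0.43 for H_O against H_C, where all entries had 0.00 and 0.01. Between the planned settings the number that fell was 8 for L_O against L_C and 8 or 9 for H_O against H_C. For all entries, the shares called lower were 13.8% and 11.5%. St6galnac4, which sialylates O-glycans, averaged 130 ± 8.22 CPM in L_O and 224 ± 23.3 CPM in L_C (SD, n = 4 each), a log2 fold change of -0.78 ± 0.06 (SE, adjusted p = 3.38e-08 by edgeR). It averaged 120 ± 2.12 CPM in H_O and 192 ± 4.28 CPM in H_C, a log2 fold change of -0.68 ± 0.06 (adjusted p = 2.12e-07 by edgeR). St3gal4 fell by 0.48 ± 0.08 and 0.62 ± 0.08 in low and high glucose (adjusted p = 0.000105 and 6.4e-06 by edgeR). St8sia4, a polysialyltransferase, fell by 0.44 ± 0.06 and 0.38 ± 0.06 (adjusted p = 1.44e-05 and 7.9e-05 by edgeR). St6gal1, which makes the ligand that Cd22 prefers, fell by 0.29 ± 0.04 and 0.34 ± 0.04 (adjusted p = 7.61e-05 and 1.49e-05 by edgeR).

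Sialic acid synthesis and breakdown genes changed in both directions. Of 11 genes of synthesis and activation, 2 rose and 1 fell for L_O against L_C, and 1 rose and 1 fell for H_O against H_C, where 25.8% and 21.9% of all entries were called in either direction. The first pair of counts gave 1 call in all without replicate 3 of L_O, and 6 higher and none lower when scaled to library totals alone, and the second gave 1 call without replicate 1 of H_C or replicate 2, 3 or 4 of H_O. Npl, which cleaves free sialic acid, averaged 7.90 ± 1.09 CPM in L_O and 4.65 ± 1.17 CPM in L_C (SD, n = 4 each) and rose by 0.77 ± 0.16 on the log2 scale (adjusted p = 0.00114 by edgeR), and by 0.63 ± 0.15 for H_O against H_C (adjusted p = 0.00565 by edgeR). Gne, the first enzyme of the pathway, fell by 0.30 ± 0.10 and 0.31 ± 0.10 (adjusted p = 0.0291 and 0.0311 by edgeR), but without replicate 4 of L_C its log2 fold change for L_O against L_C was -0.23 ± 0.10 (adjusted p = 0.0875 by edgeR). Of 3 tested sialidase genes, Neu1, the lysosomal sialidase, rose by 0.19 ± 0.04 and 0.21 ± 0.04 (adjusted p = 0.000502 and 0.000224 by edgeR), and Ctsa, its protective partner, fell by 0.26 ± 0.06 and 0.20 ± 0.06 (adjusted p = 0.00199 and 0.0138 by edgeR).

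Sialylated counter-receptors, the glycoproteins that carry ligands of Siglecs, fell with ox-LDL. All 6 fell for L_O against L_C and 4 of 6 for H_O against H_C, with median log2 fold changes of -1.03 and -0.83 where all entries had 0.00 and 0.01, and where 13.8% and 11.5% of all entries were called lower. Muc1 was at 0 in all 4 L_O libraries and had 34 counts in sum in L_C. With Muc1 set to a floor of 3 counts over the L_O libraries (at least 11.4-fold lower) the median was also -1.03. Muc1 stayed the lowest of the 6 at that floor, so this median could not change. Cd52, a small sialylated surface antigen, had 79.2, 78.7, 69.2 and 68.4 CPM in L_O, against 184, 199, 184 and 161 CPM in L_C, with no overlap and a log2 fold change of -1.30 ± 0.10 (SE, adjusted p = 1.35e-08 by edgeR). In high glucose it averaged 75.3 ± 12.9 CPM in H_O and 133 ± 8.78 CPM in H_C (SD, n = 4 each), a log2 fold change of -0.82 ± 0.10 (adjusted p = 3.95e-06 by edgeR). Cd24a, a ligand of Siglecg in mice, fell by 1.09 ± 0.12 in low glucose and 1.10 ± 0.12 in high glucose (adjusted p = 1.3e-06 and 1.19e-06 by edgeR). Spn (CD43), the counter-receptor of Siglec1 on other leukocytes, averaged 9.68 ± 1.25 CPM in L_O and 17.7 ± 2.05 CPM in L_C and fell by 0.87 ± 0.10 on the log2 scale (adjusted p = 4.37e-06 by edgeR). Its fall for H_O against H_C was 0.83 ± 0.10 (adjusted p = 8.59e-06 by edgeR). Lgals3bp fell by 0.96 ± 0.11 and 0.66 ± 0.11 (adjusted p = 4e-06 and 0.000262 by edgeR).

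**Figure D4:**
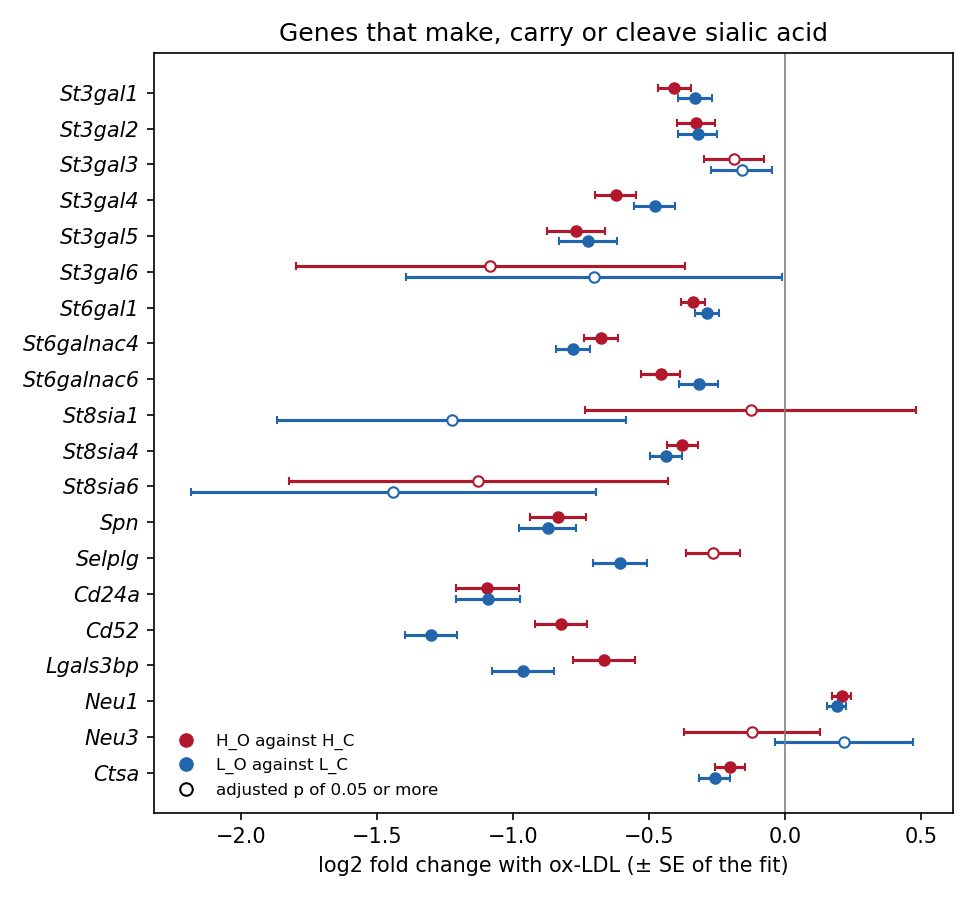
Log2 fold change with ox-LDL (x axis) for sialyltransferases, counter-receptors and sialidase genes, each on its own row, in high glucose (H_O against H_C, red) and low glucose (L_O against L_C, blue), with bars for the SE of the fit. Filled points passed the adjusted p threshold of 0.05 and open points did not. All filled sialyltransferases and counter-receptors lie left of 0, as does Ctsa, Neu1 lies right of it, and Muc1, at 0 counts in all L_O libraries, is left out.

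Siglec1 is known as an interferon-inducible gene in macrophages, so type I interferon-stimulated genes are given beside it. Of 20 genes, 15 fell for L_O against L_C, and 9 fell for H_O against H_C, with median log2 fold changes of -0.99 and -0.55, by edgeR, where all entries had 0.00 and 0.01. Of all entries, 13.8% and 11.5% were called lower. Oas3, an antiviral synthetase, averaged 54.5 ± 2.87 CPM in L_O and 162 ± 20.1 CPM in L_C (SD, n = 4 each), a log2 fold change of -1.57 ± 0.08 (SE, adjusted p = 7.04e-11 by edgeR). For H_O against H_C it was -1.52 ± 0.08 (adjusted p = 1.2e-10 by edgeR). Rsad2 (viperin) fell by 2.03 ± 0.11 and 1.35 ± 0.11 (adjusted p = 2.02e-10 and 3.45e-08 by edgeR). Siglec1, with -0.17 ± 0.07 and -0.10 ± 0.07, passed the threshold in neither comparison. The difference between the list and Siglec1 was not tested.

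The genes whose levels were most like those of each Siglec over the 16 libraries were found by Pearson correlation of log2 CPM among 8391 genes of mean log2 CPM of at least 3. The libraries share depth and scaling, and for Siglecf and Cd33 each r spans the gap between groups with and without ox-LDL. Fbxo32, a ubiquitin ligase subunit, had r = 0.99 with Siglecf, with 67.7 CPM in H_O and 236 CPM in H_C, and 50.9 CPM in L_O and 183 CPM in L_C on average. Sdc1 (r = 0.99) and Pcyt1a (r = 0.98) followed. With Cd33, Hmox1, the haem-degrading enzyme, had r = 0.99, with means of 561 CPM in H_O and 274 CPM in H_C, and 534.5 CPM in L_O and 278 CPM in L_C. Cat, which encodes catalase, had r = 0.99 and Sh3bp5 r = 0.99. For Siglec1 the most alike were Tent5a (r = 0.94), Mbd6 (r = 0.90) and Bdp1 (r = 0.90). Replicate 4 of L_C was the highest library for Siglec1, and over the 15 libraries without it, a check added after the data were seen, r was 0.91, 0.87 and 0.83. Siglece had Flii, Srp54b and Ppp1r13b with r of 0.86, 0.82 and 0.79, but with at most 34 counts per library these values are no finding.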

How the data were processed

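RNA was sequenced from 16 samples, 4 in each of H_O, H_C, L_O and L_C. One table of raw counts was deposited, with 15871 entries of whole numbers whose totals differ between samples. HISAT2, DESeq2 and the build mm10 are named without versions or roles, per the submitters' processing notes; the counting tool, annotation and strand setting are not given in the sources used here. Counts were fitted with edgeR 4.0.16 in R 4.3.3 (quasi-likelihood F test, two-sided, TMM, filterByExpr by group, a mean per group, 12 residual degrees of freedom), with Benjamini-Hochberg adjustment over 13527 tested entries and a threshold of 0.05. The 2344 other entries were not tested. Levels are CPM with TMM factors. Alternatives were other scalings and filters, DESeq2 1.42.0, voom of limma 3.58.1, a replicate block and single libraries left out. Members and lists were chosen with earlier results of these data known. Named were all members and Siglec genes, up to 4 genes of smallest adjusted p in each list, and the 3 genes most like each member. Genes named beyond this rule, chosen after their values were seen, are Muc1, Ptpn11, Tyrobp, the neighbours on chromosome 7 and the single genes named from the cell type marker lists. Scripts were tested on simulated data.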

Additional observations from a re-analysis of the deposited data

Results flagged for a closer look

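In 3 of the 32 groups of 4 libraries examined for the 8 Siglec genes, one library lay far from the other 3 by Dixon's criterion for its gap over the range. Chance alone flags about 1 in 20 such groups. All 3 concern replicate 4 of L_C, whose mitochondrial share of 3.71% was also the highest of the 16 libraries. Siglec1 stood there at 421 CPM, against 326 to 337 CPM in the other L_C libraries. Cd33 stood there at 186 CPM, against 123 to 131 CPM. Siglece stood there at 0.695 CPM, from 27 counts, against 0.276 to 0.337 CPM. Without this library L_C averaged 331.5 ± 5.48 CPM for Siglec1 and 129 ± 4.62 CPM for Cd33 (SD, n = 3).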

How the results depend on the processing

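For the 4 Siglec genes, Cd22 and Mag, 445 of the 447 recomputed log2 fold changes of L_O against L_C, H_O against H_C and H_O against L_C kept their direction and side of the threshold. The exceptions were Siglec1 for H_O against L_C, with 0.0403 under library totals alone (which moved the median of all entries to 0.108) and -0.105 to 0.0320 with single libraries left out. The recomputed values share most libraries, and some left out a library of neither compared group. Values of these data were also known when the genes were chosen, so nothing is read from this count. For H_C against L_C, Siglecf passed the threshold under limma-voom (0.341) and without replicate 1 of L_C (range 0.228 to 0.405), Cd33 ranged from -0.0506 to 0.168, and Cd22 from -0.167 to 0.0162. For H_O against L_O, Cd33 passed with only the compared libraries fitted (0.139) and without replicate 4 of L_C (range 0.109 to 0.168), and Siglece ranged from -0.355 to 0.210. The difference between ox-LDL effects ranged from -0.0862 to 0.0904 for Siglecf, -0.0286 to 0.104 for Siglec1, -0.0704 to 0.636 for Siglece, -0.0294 to 0.189 for Cd33 and -0.0112 to 0.162 for Mag. Entries called numbered 914 for H_C against L_C and 1619 for H_O against L_O with only the compared libraries, against 1728 and 826, and 526 for H_O against L_O without replicate 1 of L_O to 1763 without replicate 4 of L_C. For the interaction they were 2 by edgeR, 95 by DESeq2, 0 by limma-voom (1190 at an unadjusted p under 0.05), 0 with the replicate block (1099), and 0 to 53 (without replicate 4 of L_C) with single libraries left out. Under library totals alone, H_O against L_C had 3389 higher and 1555 lower in place of 1955 and 2174, and H_C against L_C 927 and 841 in place of 679 and 1049. Causes were not tested. Same-numbered libraries did not deviate together (r from -0.165 to 0.104 in 24 pairs, 5 of 16 libraries most like their own number), so that numbers were not taken to pair samples. With the replicate block Siglecf had -2.06 for L_O against L_C and Cd33 0.98. Depth limits Siglece, Siglecg and Siglec15, at 0 to 34 counts per library. Siglece had no value under the filter of at least 1 CPM in 4 samples.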

Other observations

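Inhibitory receptors of macrophages outside the Siglec family split in direction with ox-LDL. Of 12 listed, 3 rose and 5 fell for L_O against L_C, and 6 rose and 3 fell for H_O against H_C, where 25.8% and 21.9% of all entries were called in either direction. Without replicate 4 of L_C, 6 rose and 5 fell in both comparisons. Clec12a, a receptor for uric acid crystals, averaged 108 ± 6.41 CPM in L_O and 243 ± 12.5 CPM in L_C (SD, n = 4 each), a log2 fold change of -1.17 ± 0.06 (SE, adjusted p = 2.4e-10 by edgeR), and fell by 0.99 ± 0.06 for H_O against H_C (adjusted p = 2.01e-09 by edgeR). Sirpa, the receptor of the signal CD47, fell by 0.36 ± 0.03 and 0.37 ± 0.03 (adjusted p = 1.61e-07 and 1.04e-07 by edgeR). Cd200r1 rose by 0.65 ± 0.05 in both (adjusted p = 8.55e-09 and 9.64e-09 by edgeR), and Clec4a2 by 0.97 ± 0.11 and 1.27 ± 0.11 (adjusted p = 1.59e-06 and 7.2e-08 by edgeR).

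The stretch of chromosome 7 from Siglecf to Siglece spans 308.8 kb. It holds 22 annotated genes, not counting any named as microRNAs, of which 11 had an entry and 9 were tested. Neighbours of the Siglec genes moved in both directions with ox-LDL. Of all entries, 25.8% were called in either direction for L_O against L_C and 21.9% for H_O against H_C. Etfb, an electron transfer flavoprotein subunit, rose by 0.45 ± 0.12 for L_O against L_C (adjusted p = 0.00816 by edgeR) and by 0.45 ± 0.12 for H_O against H_C (adjusted p = 0.00927). Vsig10l fell by 0.65 ± 0.18 and 0.63 ± 0.18 (adjusted p = 0.011 and 0.0149 by edgeR). Nkg7 fell by 2.12 ± 0.49 for L_O against L_C (adjusted p = 0.00346 by edgeR), with a log2 fold change of -0.97 ± 0.46 for H_O against H_C (adjusted p = 0.154). Nkg7 is also on the list of T and NK cell markers, and its counts were low, at most 73 per library. Zfp658, the next tested gene beyond Cd33, had a log2 fold change of 0.40 ± 0.14 (adjusted p = 0.0529 by edgeR) and 0.48 ± 0.14 (adjusted p = 0.0215), and Zfp719 of -0.18 ± 0.13 and -0.10 ± 0.13 (adjusted p = 0.344 and 0.662 by edgeR).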
